A study of Mus musculus with 9 samples.

Results

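The genes described here are those of alpha tubulin supply: the alpha tubulin isotypes *Tuba1a*, *Tuba1b*, *Tuba1c* and *Tuba4a*, the tubulin folding cofactors *Tbca*, *Tbcb*, *Tbcc*, *Tbcd* and *Tbce*, and the autoregulation factor *Ttc5*. They were taken by name, and all 10 were found among the 24421 rows of the count table. RNA was sequenced from SB28 tumors, a glioma line expressing GFP and luciferase that grows in the brain of C57BL/6 mice, implanted at 6 to 8 weeks of age. In the control group (3 libraries), mice received vehicle and tumor cells were sorted 21 days after implantation. In the BAL101553 group (3 libraries), mice received BAL101553 by oral gavage, and cells were sorted at 33 days by one statement of the study and 35 days by another, so treatment and time of growth cannot be told apart. A last group of 3 libraries carries the treatment label BAL101553 and the cell type label astrocytes, and the study's text does not describe how these cells were obtained. SB28 is 1 cell line, so its 6 tumor libraries describe a single tumor genotype. Cells were gated as CD45- CD11b- GFP+ by the study's methods, whereas the labels of the control and BAL101553 libraries call the material whole tissue. Age, gavage, day of harvest and gate are taken from the study's text, which names another deposit for its data and gives 2 samples per group, so they are not shown to hold for each of these libraries.

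Alpha and beta tubulin form the heterodimer from which microtubules are built. A new chain is passed from prefoldin to the CCT chaperonin, and the cofactors then take over: TBCB and TBCE bind alpha tubulin, TBCA and TBCD bind beta tubulin, and TBCC releases the finished dimer from a complex that holds both chains. Cells also read their own store of free dimers. When it is high, TTC5 binds the first residues of a nascent tubulin chain on the ribosome and, through SCAPER and the CCR4-NOT deadenylase, directs decay of the mRNA being translated. BAL101553 is a prodrug of a compound that destabilizes microtubules.

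The coding starts are shown because the 4 codons in capitals encode the end of the chain that TTC5 reads. Each is the first 30 coding bases of the principal GENCODE vM21 transcript, 5′ to 3′, and the first 3 of these bases lie in a separate first coding exon in all 4 genes.
*Tuba1a*, start codon at chr15:98953451-98953453 (GRCm38, minus strand): ATGCGTGAGTGCatctccatccatgttggc
*Tuba1b*, start codon at chr15:98934333-98934335 (GRCm38, minus strand): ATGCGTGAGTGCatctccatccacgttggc
*Tuba1c*, start codon at chr15:99030422-99030424 (GRCm38, plus strand): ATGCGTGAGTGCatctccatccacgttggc
*Tuba4a*, start codon at chr1:75219193-75219195 (GRCm38, minus strand): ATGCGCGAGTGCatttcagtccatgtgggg
The 12 capital bases were identical in *Tuba1a*, *Tuba1b* and *Tuba1c*, and *Tuba4a* differed from *Tuba1a* there by 1 substitution, T6C, counted from the A of the start codon, which leaves the encoded residue the same. Over all 30 bases, *Tuba1b* and *Tuba1c* each differed from *Tuba1a* by 1 substitution (T24C) and *Tuba4a* by 6.

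Coding sequences of the 3 *Tuba1* genes were 97.1% to 98.3% identical to each other, and 84.8% to 85.2% identical to that of *Tuba4a*. Of the 50-base stretches in their transcripts, the length of 1 read, 72.9% in *Tuba1a*, 73.8% in *Tuba1b* and 61.0% in *Tuba1c* also occur in another gene or pseudogene, against 0.870% in *Tuba4a*, 23.1% in *Tbca*, 10.2% in *Ttc5* and 0 in the other cofactors. How the counting treated such reads is not given in the sources used here, so the separate values of *Tuba1a*, *Tuba1b* and *Tuba1c* are uncertain and the alpha tubulin sum is given beside them.

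*Tuba1a* (chr15:98949837-98953703), *Tuba1b* (chr15:98931425-98934565) and *Tuba1c* (chr15:99029891-99038110) are neighbours, and *Tuba4a* is at chr1:75214228-75219865. The cofactor genes are *Tbca* (chr13:94788910-94842922), *Tbcb* (chr7:30224131-30232272), *Tbcc* (chr17:46890684-46891847, 1 exon), *Tbcd* (chr11:121451949-121617164) and *Tbce* (chr13:13997949-14039638), and *Ttc5* is at chr14:50765415-50785519. Exons of *Tuba1b*, *Tuba4a*, *Tbcb*, *Tbcd* and *Tbce* overlap exons of a gene on the opposite strand, and those of *Tuba1a* and *Tuba1b* overlap the same-strand gene model *Gm49450*. Libraries were stranded, but the strand setting of the count is not given in the sources used here.

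Counts per library were 24540452 to 28761388 in the control group, 26667789 to 34013875 in the BAL101553 group and 22919523 to 29230743 in the libraries labelled astrocytes. Levels below are CPM, read counts scaled to a common library total with edgeR's TMM over all 9 libraries. The summed level of 6 oligodendrocyte markers was 18.7 to 20.6 CPM in the control group, 15.3 to 18.9 after BAL101553 and 10282 to 12723 in the libraries labelled astrocytes, where the 6 astrocyte markers summed to 11698 to 14398 CPM. The astrocyte markers, chiefly *Gja1*, summed to 939.6 to 971 CPM in the control group and 680.1 to 796 CPM after BAL101553. In the libraries labelled astrocytes, 8 microglia and macrophage markers summed to 586 to 1198 CPM, and 6 endothelial markers to 193 to 229 CPM. In the tumor libraries these sums were at most 56.1 and 95.3 CPM. The last group therefore held transcripts of several cell types, astrocytes and oligodendrocytes among them, and is called by its label only. *Ptprc* and *Itgam*, which encode the antigens the gate excludes, summed to at most 0.513 CPM in the tumor libraries and to 34.3 to 96.4 CPM in those labelled astrocytes. As these are bulk libraries, fewer cells of a type and less RNA per cell cannot be told apart.

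After BAL101553, mRNA of the *Tuba1* genes was lower than in the control group: *Tuba1a* by 42.4% of the mean level, *Tuba1b* by 36.3% and *Tuba1c* by 41.9%. Of the cofactors, *Tbcb* was lower as well, the other 4 did not pass the test, and neither did *Tuba4a* or *Ttc5*. Across the members, 4 of 10 were lower, 0 higher and 6 not called by edgeR's quasi-likelihood test with adjustment over the 12633 genes tested and a threshold of 0.05, where 14.7% of all genes were called, 6.09% as lower and 8.64% as higher. The median log2 fold change of the 10 genes was -0.29, beside 0.02 over all genes tested. Of the members with higher values, 1 had an unadjusted p under 0.05 (*Tbce*), and it was called in none of the fits with edgeR's exact test, limma-trend or DESeq2.

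*Tuba1a*, the main alpha tubulin isotype of the developing brain, was at 1405, 1251 and 1317 CPM in the control libraries and at 882, 731 and 677 CPM in the BAL101553 libraries. The lowest control library lay above the highest BAL101553 library. Its log2 fold change was -0.79 (standard error 0.12, adjusted p = 0.0112).

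*Tuba1b*, the broadly expressed isotype of dividing cells, was at 839, 689 and 720.2 CPM in the control group and at 490.4, 474 and 467 CPM after BAL101553. The groups did not overlap, and the BAL101553 libraries lay closer together (CV 2.51%, n = 3) than the control libraries (CV 10.6%, n = 3). The log2 fold change was -0.65 (standard error 0.10, adjusted p = 0.0125).

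*Tuba1c*, the third gene of the cluster, was at 363, 327 and 323 CPM in the control group and at 217, 179.9 and 192 CPM after BAL101553, again with no overlap. The log2 fold change was -0.78 (standard error 0.10, adjusted p = 0.00787). The intervals of the 3 changes overlapped (95% intervals of -1.07 to -0.51 for *Tuba1a*, -0.89 to -0.41 for *Tuba1b* and -1.02 to -0.54 for *Tuba1c*).

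*Tuba4a*, whose product lacks an encoded terminal tyrosine, was at 131, 124 and 111 CPM in the control group and at 112, 101 and 91.8 CPM after BAL101553. Here the highest BAL101553 library lay above the lowest control library. The log2 fold change of -0.25 (95% interval -0.50 to -0.0034) had an adjusted p of 0.143. Whether it differs from the change of the *Tuba1* genes was not tested.

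**Figure D1:**
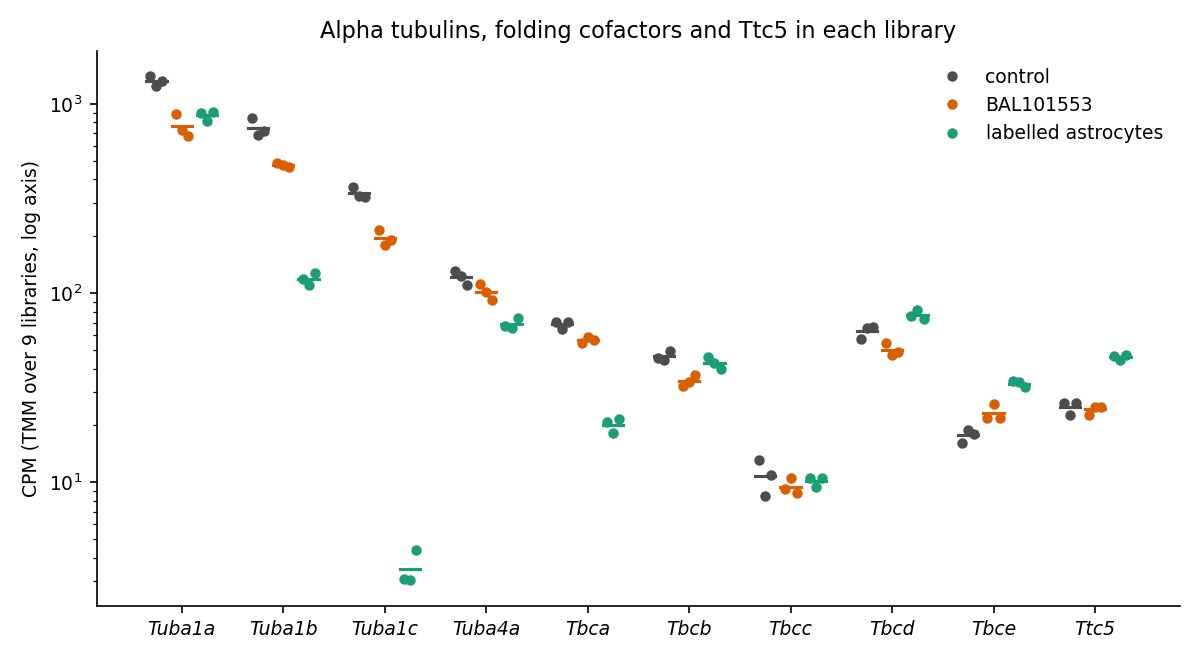
Level of each gene in each library, in CPM on a log axis (TMM over 9 libraries), with 1 point per library and a bar at the group mean. The 3 *Tuba1* genes lie lower in every BAL101553 library than in any control library, *Ttc5* overlaps between these groups, and *Tuba1c* is near 3 to 4 CPM in the libraries labelled astrocytes.

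The cofactors are ordered by the chain they bind. *Tbcb*, which takes up alpha tubulin after its release from CCT, was at 45.7, 44.3 and 49.5 CPM in the control group and at 32.5, 34.1 and 36.9 CPM after BAL101553. The groups did not overlap, and the log2 fold change was -0.43 (standard error 0.098, adjusted p = 0.0300). *Tbce*, the partner of *Tbcb* in holding alpha tubulin, stood the other way: it was at 16.1, 19.0 and 18.1 CPM in the control group and at 21.8, 25.9 and 22.0 CPM after BAL101553. Every BAL101553 library lay above every control library, yet the log2 fold change of 0.40 did not pass (standard error 0.13, adjusted p = 0.0718).

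*Tbca*, which captures beta tubulin, was at 70.4, 64.4 and 70.5 CPM in the control group and at 54.8, 59.0 and 56.8 CPM after BAL101553. *Tbcd*, the other beta tubulin cofactor, was at 57.2, 65.9 and 66.0 CPM in the control group and at 54.3, 47.2 and 49.2 CPM after BAL101553. In both genes the groups were apart, with log2 fold changes of -0.26 for *Tbca* (adjusted p = 0.0791) and -0.32 for *Tbcd* (adjusted p = 0.0644), which did not pass the test. With a trend in exon length removed, *Tbca* was at -0.014 (adjusted p = 0.916), and the median of the 5 cofactors moved from -0.26 to -0.027. *Tbcc*, which triggers release of the dimer, was at 13.1, 8.45 and 10.99 CPM in the control group and at 9.27, 10.5 and 8.75 CPM after BAL101553. These values overlapped, and the spread in the control group (CV 21.5%) left a wide 95% interval of -0.63 to 0.26 around the log2 fold change of -0.18 (adjusted p = 0.537).

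*Ttc5*, the factor that recognizes nascent tubulin, was at 26.4, 22.6 and 26.4 CPM in the control group and at 22.9, 24.9 and 25.2 CPM after BAL101553. The libraries of both groups were interleaved. Its log2 fold change was -0.04 (95% interval -0.31 to 0.23, adjusted p = 0.824). In all, 6 members were lower and 1 was higher with no overlap between the groups, where 39.7% of all genes tested did not overlap, 19.6% as lower and 20.1% as higher.

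**Figure D2:**
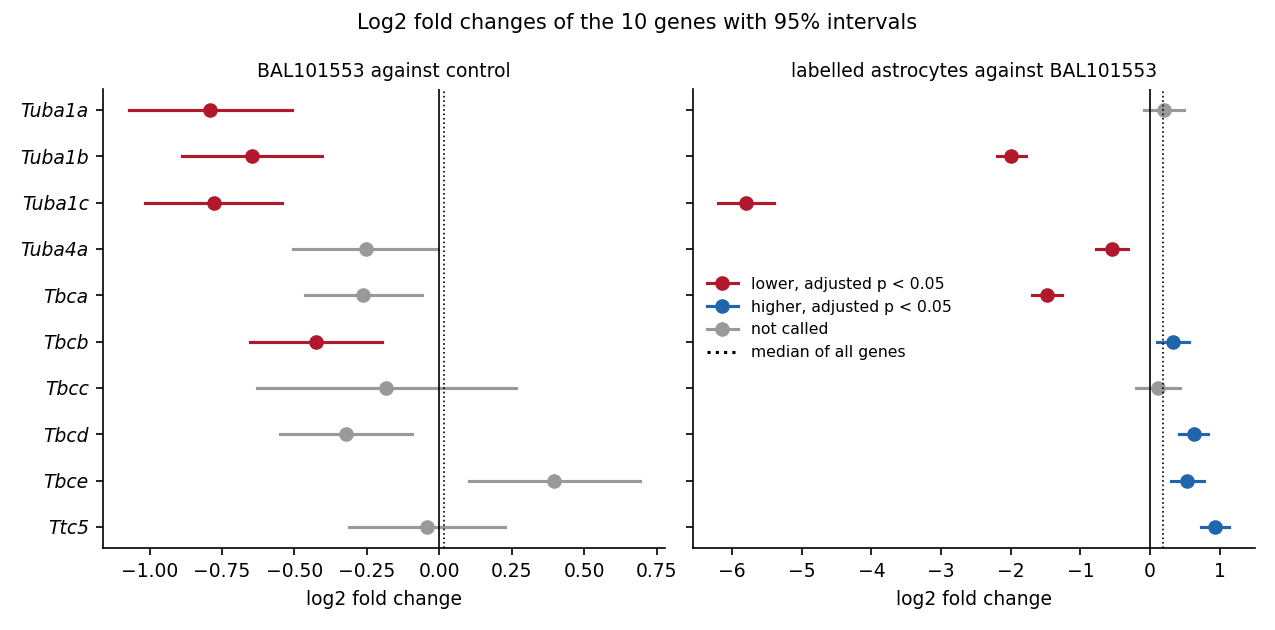
Log2 fold change of each gene (point) with its 95% interval (line) for BAL101553 against control, left, and the libraries labelled astrocytes against BAL101553, right, on separate scales. Red and blue mark genes that passed the test as lower or higher, grey those that did not, and the dotted line is the median of all genes tested. On the left *Tuba1a*, *Tuba1b*, *Tuba1c* and *Tbcb* are red, and on the right *Tuba1c* stands at -5.80.

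Calls for the *Tuba1* genes depended on the libraries that entered the fit, while their direction did not. Without control 3, *Tuba1a* (adjusted p = 0.0538) and *Tuba1b* (adjusted p = 0.0536) did not pass, and *Tuba1c* was the 1 member called. That fit called 193 genes in all, beside 1860 with all libraries. In the fits that left out 1 of the 5 other libraries, which called 458 to 1712 genes in all, all 3 genes passed. *Tbcb* did not pass without control 1 (adjusted p = 0.0790), control 3 (0.119), BAL101553 1 (0.0744) or BAL101553 3 (0.0567). With 2 libraries in each group, *Tuba1a* was called in 3 of 9 fits, *Tuba1b* in 2, *Tuba1c* in 4 and *Tbcb* in 0. Over all genes tested, these 9 fits called from 1 to 1757 genes. Their log2 fold changes ran from -0.95 to -0.66 for *Tuba1a*, -0.73 to -0.53 for *Tuba1b*, -0.89 to -0.66 for *Tuba1c* and -0.52 to -0.34 for *Tbcb*.

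**Figure D3:**
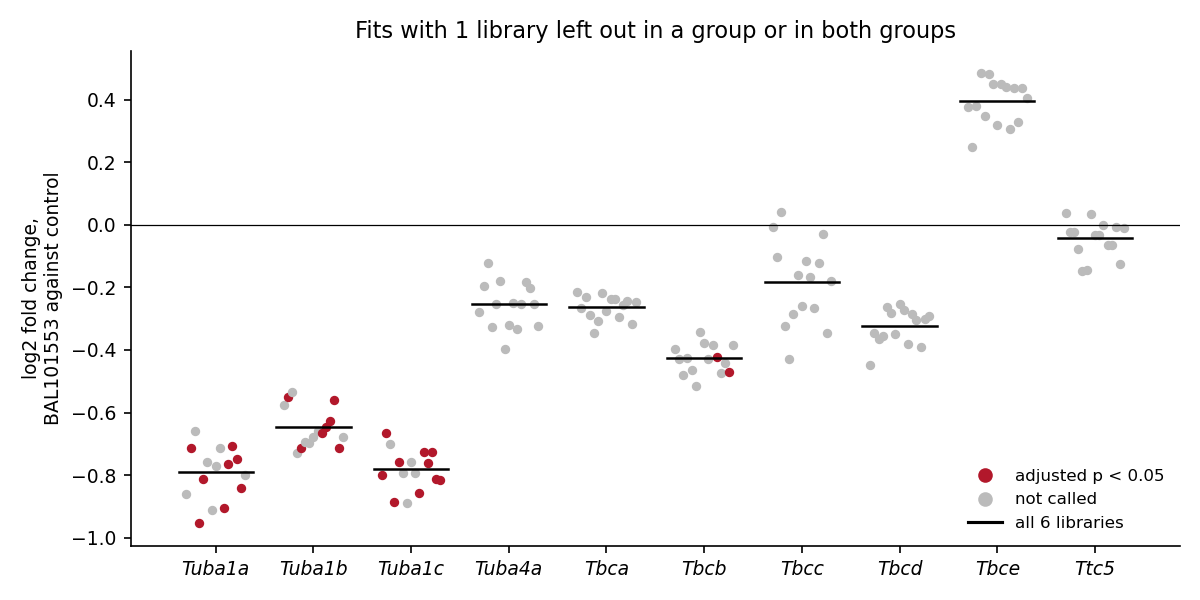
Log2 fold change for BAL101553 against control in the 15 fits with only 2 libraries in one group or in each (points) and with all 6 libraries (bars). Points of *Tuba1a*, *Tuba1b* and *Tuba1c* stay below -0.53 whether the test passed (red) or not (grey), whereas those of *Tbcc* and *Ttc5* lie on both sides of 0.

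Scaling and abundance bear on the same values. With library totals in place of TMM, 1456 genes were called higher and 425 lower, beside 1091 and 769 with TMM. Under that scaling the 3 *Tuba1* genes were still called lower, *Tbcb* was not (adjusted p = 0.0672), and *Tbce* was called higher (log2 fold change 0.48, adjusted p = 0.0426). *Tuba1a*, *Tuba1b* and *Tuba1c* belong to the 1264 most abundant genes of this comparison (mean level of at least 172 CPM), of which 15.7% were called lower and 5.22% higher, with a median log2 fold change of -0.15. The part of abundance in the members' values was not tested beyond the alternatives named with the limits.

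The 4 alpha tubulins together summed to 2738, 2391 and 2471 CPM in the control libraries and to 1701, 1487 and 1428 CPM after BAL101553. The groups were far apart. Their log2 ratio was -0.72, taken as the difference of the groups' mean log2 sums with TMM over the libraries of the 2 groups only. As a share of all counts, with no TMM scaling, the sum was 0.231% ± 0.0156 (SD, n = 3) in the control group and 0.149% ± 0.0127 (SD, n = 3) after BAL101553. The sum does not depend on how reads were split among these genes, but it would lack any reads shared among them that the count dropped. Reads shared with pseudogenes and other gene models could likewise be missing from the sum or added to it. The sum was not tested, since it is made of genes tested one by one.

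Per kilobase of exon, *Tuba1a* made up 52.3%, 53.5% and 54.3% of the alpha tubulin sum in the control libraries and 53.2%, 50.4% and 48.6% after BAL101553. *Tuba1b* took 30.5% to 32.3% in the control group and 30.6% to 34.7% after BAL101553, and *Tuba1c* 12.1% to 12.7% and 11.3% to 12.5%. These ranges overlapped, so the share of no *Tuba1* gene set the groups apart. *Tuba4a* took 2.90% to 3.36% in the control group and 4.18% to 4.42% after BAL101553, ranges that did not overlap. All shares of the sum, here and in the libraries labelled astrocytes, depend on how reads shared among genes were counted. The ratio of summed alpha to summed beta tubulin per kilobase was 0.850 to 0.882 in the control group and 0.747 to 0.918 after BAL101553.

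**Figure D4:**
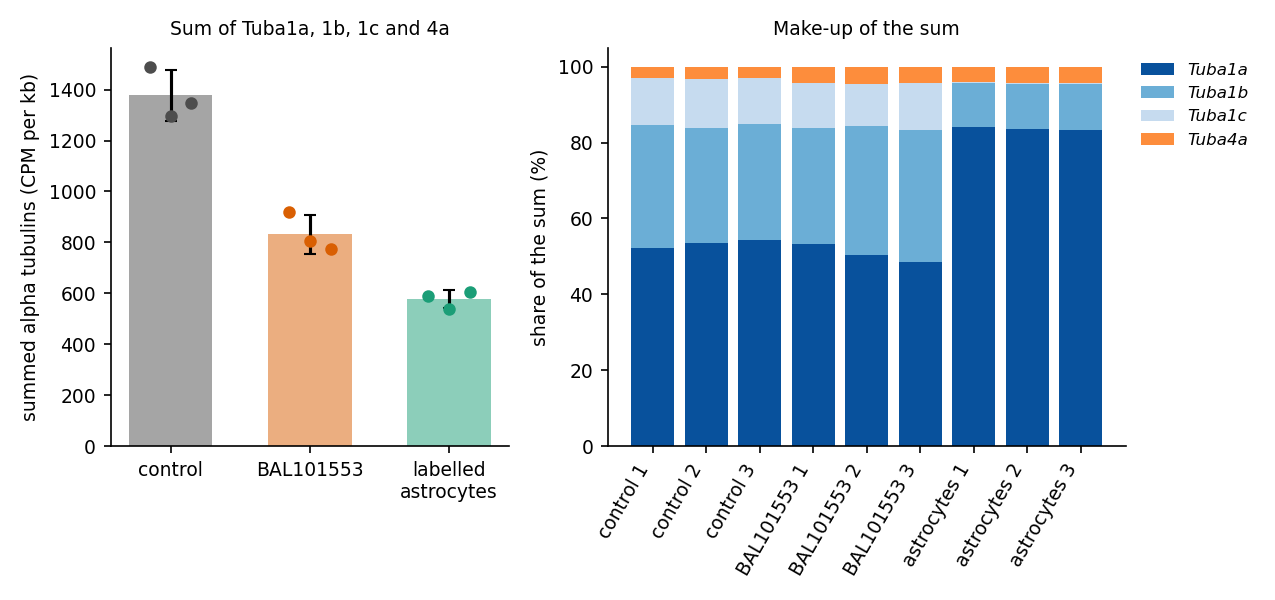
Left, summed CPM per kilobase of the 4 alpha tubulins (bar, group mean; error bar, SD of 3 libraries; points, libraries). Right, the share of each isotype in that sum in every library, in percent, with *Tuba1a* near 50% in the tumor libraries and 83.2% to 84.2% in the libraries labelled astrocytes.

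Other genes of the pathway were read from 8 lists with 64 genes, of which 62 were in the table and 58 were tested. After BAL101553, 13 were lower, 1 higher and 44 not called, with a median log2 fold change of -0.24. Over all genes tested, 6.09% were lower and 8.64% higher. The number of pathway genes called was 1 without control 3, 2 without control 1, 8 without control 2, 5 without BAL101553 1 and 4 without BAL101553 3. Over all genes tested, the same fits called 193, 458, 1260, 1133 and 668 genes in that order, beside 1860 with all libraries. The beta tubulins stood closest to the alpha tubulins: 3 of 7 tested were lower and 0 higher, with a median of -0.48. These were *Tubb6* (log2 fold change -1.03, adjusted p = 0.00608), *Tubb4b* (-0.55, adjusted p = 0.0182) and *Tubb5* (-0.48, adjusted p = 0.0425), which carry most of the beta tubulin mRNA in the tumor libraries. *Tubb6* was at 991, 886 and 896 CPM in the control group and at 508, 410.0 and 433 CPM after BAL101553, and the groups did not overlap. *Tuba8*, the 1 other alpha tubulin with enough reads, was at 1.55 to 4.67 CPM in the control group and 1.74 to 4.26 CPM after BAL101553 (log2 fold change -0.28, adjusted p = 0.700).

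Chaperones that act before the cofactors also held called genes. Of the 6 prefoldin subunits, 3 were lower, namely *Pfdn5* (log2 fold change -0.46, adjusted p = 0.0409), *Pfdn1* (-0.42, adjusted p = 0.0477) and *Pfdn4* (-0.34, adjusted p = 0.0476), and the median of the list was -0.35. Of the 9 genes of the CCT list, 4 were lower: the subunit genes *Cct7* (-0.50, adjusted p = 0.0140), *Cct4* (-0.43, adjusted p = 0.0246) and *Tcp1* (-0.35, adjusted p = 0.0482), and *Pdcl3* (-0.42, adjusted p = 0.0390), which encodes a phosducin-like partner of CCT. All 9 had log2 fold changes below 0, from -0.50 to -0.22. Over all genes tested 6.09% were lower. Under 5 other scalings (DESeq2's size factors, upper quartile, total counts, cyclic loess, and a trend with exon length removed), all tested genes of the beta tubulin, prefoldin and CCT lists also stayed below 0. The number called went down to 0 of 6 for prefoldin (total counts, or the length trend removed) and 1 of 9 for CCT (cyclic loess). Over all genes, 425 of 12633 were lower with total counts, 608 of 12171 with the length trend removed and 662 of 12633 after cyclic loess. Of the 9 genes of the gamma tubulin complex, which nucleates microtubules, 0 were called by the quasi-likelihood test or by limma-trend, 1 had an unadjusted p under 0.05, and 1 was called by DESeq2 or the exact test. Of the 12633 genes tested, DESeq2 called 2832 and the exact test 2491. The median of that list was 0.00.

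In the machinery through which TTC5 directs decay, 1 of 10 tested genes was lower, *Cnot11* (log2 fold change -0.37, adjusted p = 0.0293), a CCR4-NOT subunit. Over all genes tested 6.09% were lower, and with total counts 0 of these 10 genes were called, beside 1881 of all 12633. *Cnot11* was at 51.1, 53.1 and 51.0 CPM in the control group and at 39.9, 40.8 and 39.1 CPM after BAL101553, with no overlap. *Scaper*, the adapter between TTC5 and CCR4-NOT, was at 11.5, 12.5 and 12.7 CPM in the control group and at 13.4, 15.8 and 16.0 CPM after BAL101553. Its groups did not overlap either, and its log2 fold change of 0.30 did not pass (adjusted p = 0.144). Of the cofactor partners, *Arl2*, a GTPase bound by TBCD, was at -0.32 (adjusted p = 0.0801) and *Tbcel*, which resembles TBCE, at 0.15 (adjusted p = 0.507).

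Among 14 tested genes for enzymes that modify tubulin, 2 were lower and 1 was higher, beside 6.09% and 8.64% of all genes tested. With total counts 1 was lower and 1 higher, beside 425 and 1456 of all 12633 genes tested. After cyclic loess 1 was lower and 0 higher, beside 662 and 1029 of all genes, so *Atat1* was not called higher there. *Hdac6*, which removes the acetyl group from alpha tubulin, was lower (log2 fold change -0.53, adjusted p = 0.0184), and *Atat1*, which adds it, was higher (0.60, adjusted p = 0.0393). *Hdac6* was at 136 to 145 CPM in the control group and at 85.5 to 106 CPM after BAL101553, and *Atat1* at 7.53 to 9.51 and 11.7 to 14.2 CPM. *Ttll12*, a member of the tyrosine ligase-like family, was lower (-0.48, adjusted p = 0.0442). *Ttl*, which restores the terminal tyrosine, was at 27.2 to 29.5 CPM in the control group and at 23.8 to 26.8 CPM after BAL101553 (-0.13, adjusted p = 0.405).

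Genes of dividing cells are given beside these values because tubulin mRNA is high in dividing cells. The 10 genes of that list summed to 911 to 944 CPM in the control group and to 845 to 1043 CPM after BAL101553. Of the 10, 0 were called by the quasi-likelihood test, 3 had an unadjusted p under 0.05, and 3 were called by DESeq2 (2 higher and 1 lower). Over all 12633 genes tested, DESeq2 called 1495 higher and 1337 lower. Their median log2 fold change was -0.08.

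**Figure D5:**
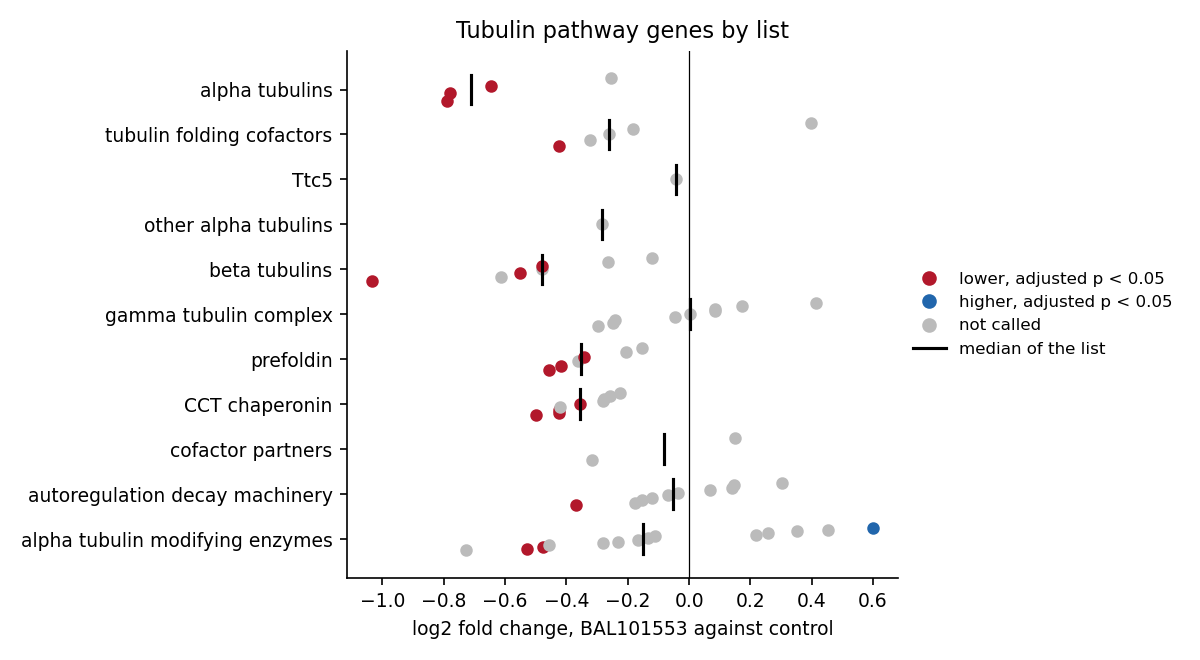
Log2 fold changes for BAL101553 against control of the genes tested in each list (1 point per gene, bar at the list's median). Red and blue mark genes called lower or higher, grey those not called; the beta tubulins, prefoldin and CCT lists lie below 0, and the gamma tubulin complex and decay machinery lie on both sides of it.

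The libraries labelled astrocytes and the BAL101553 libraries share the treatment label and differ in cell type. In this comparison 85.1% of the 15314 genes tested were called, 46.3% as higher and 38.9% as lower, so a call by itself sets no gene apart. It uses the same BAL101553 libraries as the comparison with the control group. Of the members, 4 were higher, 4 lower and 2 not called, the same 4 and 4 did not overlap between the groups (all genes, 47.6% as higher and 40.2% as lower), and their sizes ran from 0.94 to -5.80 on the log2 scale. The median of the 10 was 0.16, beside 0.18 over all genes. The median of all genes was 0.39 with total counts and 0.36 with upper quartile scaling, for which that of the 10 was not computed. The number of members called ran from 6 with the length trend removed to 10 with at least 10 counts in every library, where *Tuba1a* and *Tbcc* were called higher too. Over all genes, these settings called 12633 of 14735 and 9779 of 11873.

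The alpha tubulins of the *Tuba1* cluster were unlike each other here. *Tuba1a* was at 893, 812 and 907 CPM in the libraries labelled astrocytes, overlapping the 677 to 882 CPM of the BAL101553 group, with a log2 fold change of 0.20 (adjusted p = 0.155). It passed as higher without BAL101553 1 (0.30, adjusted p = 0.0451), with total counts (0.41), with upper quartile scaling (0.39), with at least 10 counts in every library (0.43) and after cyclic loess (1.13, adjusted p = 4.28e-05). It was at -0.19 with the length trend removed, and it was lower than in the control group (-0.60, adjusted p = 0.000313). *Tuba1b* was at 118, 110.2 and 128 CPM, 4.02-fold below the BAL101553 mean (log2 fold change -1.99, adjusted p = 3.2e-07).

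*Tuba1c* was at 3.08, 3.04 and 4.38 CPM, or 100 reads, 88 reads and 116 reads. Its mean was 56.1-fold below that of the BAL101553 group (log2 fold change -5.80, adjusted p = 4.37e-08), the largest difference among the members. *Tuba4a* was at 67.2, 65.6 and 74.2 CPM (-0.55, adjusted p = 0.000951), and was not called after cyclic loess (-0.073, adjusted p = 0.484). These libraries lay below every BAL101553 library for the last 3 genes.

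Summed alpha tubulin was 1082, 991 and 1113 CPM in the libraries labelled astrocytes. The log2 ratio to the BAL101553 group was -0.52, again from mean log2 sums with TMM over the 2 groups only. *Tuba1a* made up 83.2% to 84.2% of the sum per kilobase, *Tuba1b* 11.5% to 12.1%, *Tuba1c* 0.264% to 0.365% and *Tuba4a* 4.02% to 4.32%. The ratio of alpha to beta tubulin per kilobase was 0.328 to 0.395, below every tumor library. In CPM, the beta tubulin sum there had a mean of 3368, of which *Tubb4a* gave 2353, beside 0.715 for *Tubb4a* after BAL101553. The part of *Tubb4a* in the ratio was not tested.

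Among the cofactors, both of those that bind alpha tubulin were called higher, and the pair that binds beta tubulin split. *Tbca* was at 20.8, 18.3 and 21.6 CPM in the libraries labelled astrocytes, 2.82-fold below the BAL101553 mean (log2 fold change -1.48, adjusted p = 1.97e-06). *Tbcd*, at 75.8, 81.5 and 73.3 CPM, was higher (0.63, adjusted p = 0.000250), as was *Tbce*, at 34.3, 33.8 and 31.8 CPM (0.53, adjusted p = 0.00129). With the length trend removed *Tbce* was not called (0.15, adjusted p = 0.253), and *Tbcd* was at 0.31. *Tbcb*, at 46.0, 42.8 and 39.8 CPM, was also called higher (0.33, adjusted p = 0.0126), though not without astrocytes 1 (adjusted p = 0.0673), not with the length trend removed (-0.015) and not when set against the control group (-0.11, adjusted p = 0.249).

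*Tbcc* had the steadiest mean of the cofactors across groups, with 10.5, 9.45 and 10.6 CPM in the libraries labelled astrocytes (0.11, adjusted p = 0.457), and was called with at least 10 counts in every library (0.34, adjusted p = 0.0395). *Ttc5* was at 46.6, 44.3 and 47.4 CPM, above every tumor library and 1.89 times the BAL101553 mean (log2 fold change 0.94, adjusted p = 1.76e-05). Against the control group its difference was 0.88, and that of *Tbce* 0.92.

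Of the 58 pathway genes tested, 19 were higher and 34 lower in this comparison, beside 46.3% and 38.9% of all genes tested. All 9 CCT genes were lower, with the largest fall in *Cct5* (-2.19), and 4 of 6 prefoldin genes, with the largest fall in *Pfdn4* (-2.44). Of 7 beta tubulins 4 were higher and 2 lower, from *Tubb4a* (11.71), the isotype of myelinating oligodendrocytes, to *Tubb6* (-7.21), and *Tuba8* was lower (-3.52). *Tubb4a* was at 0.530 to 0.942 CPM in the tumor libraries and at 1996 to 2571 CPM in those labelled astrocytes, moving with the oligodendrocyte markers, whose part in the members' values was not tested.

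In the remaining lists, 4 of 9 gamma tubulin complex genes were higher and 4 lower, from *Tubg2* (0.95) to *Tubg1* (-1.04). These counts and those below stand beside 46.3% of all genes tested called higher and 38.9% lower. Both cofactor partners were higher, *Tbcel* by 1.07 and *Arl2* by 0.69. In the decay machinery 2 of 10 were higher and 8 lower, from *Scaper* (0.64) to *Cnot6* (-1.04). The modifying enzymes split into 7 higher and 6 lower of 14, from *Ttll7* (3.87), a polyglutamylase gene, to *Vash2* (-4.32), a detyrosinase gene. The dividing cell genes summed to 49.3 to 59.9 CPM, below every tumor library, and 10 of 10 were lower.

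Levels can be compared between genes only per kilobase of exon. Exon lengths include stretches shared with other genes, many of them in the *Tuba1* genes and *Tbca*. How reads from such stretches were counted is not given in the sources used here, so the order of genes is uncertain to that extent. On that scale *Tuba1a* led in all groups, at 735 ± 43.0 CPM per kb in the control group, 423 ± 58.9 after BAL101553 and 483 ± 28.6 in the libraries labelled astrocytes (SD, n = 3). In the control group *Tuba1b* (429.9 CPM per kb), *Tuba1c* (170.5), *Tbca* (112), *Tuba4a* (42.9), *Tbcb* (32.8) and *Tbcd* (16.1) followed, each apart from the next. *Tbce* (9.61 CPM per kb) and *Tbcc* (9.32) overlapped, and *Ttc5* (6.88) was lowest.

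After BAL101553 the order of mean levels was the same, but *Tuba1c* (99.0 CPM per kb) then overlapped *Tbca* (92.9), and *Tbcd* (12.9) overlapped *Tbce* (12.6). In the libraries labelled astrocytes *Tuba1b* (68.1 CPM per kb) was next to *Tuba1a*, *Tbca* (29.8 to 35.3) and *Tbcb* (28.1 to 32.5) overlapped, and *Ttc5* (12.6) stood above *Tbcc* (8.74). *Tuba1c* (1.77 CPM per kb) was lowest there, after holding the third rank in the tumor groups.

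The genes most like the summed alpha tubulins were sought by the root mean square difference of centred log2 CPM over the 9 libraries, among 12546 genes. *Sf3b5* (0.0961), *Prkcdbp* (0.106), *Timm13* (0.108), *Cox5a* (0.113) and *Marcksl1* (0.117) were nearest. *Sf3b5*, a gene of the U2 spliceosomal particle, was at 38.3 to 44.4 CPM in the control group, 27.3 to 29.4 CPM after BAL101553 and 18.0 to 20.9 CPM in the libraries labelled astrocytes. The likeness is a description over 9 libraries that share their scaling and 3 groups.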

How the data were processed

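RNA-seq counts of 9 libraries were used. The authors deposited whole-number read counts per gene, not normalized. Per the labels, reads were mapped to mm10 with TopHat and counted with HTSeq 0.6.1; the study's methods also name featureCounts, and the annotation is not given in the sources used here. Reads were 50 bases long. Over the whole gene table, libraries of a group differed by more than sampling noise (chi-square per degree of freedom of 14.9 to 68.4 for pairs of libraries), which was not measured for single members. The study speaks of 2 biological replicates per group, whereas the table holds 3, and the labels do not tie libraries to mice, so p-values measure the spread between libraries. Gene names turned into dates (27 rows, at most 0.440% of a library) were kept.

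The tools were edgeR 4.0.16 and limma 3.58.1 for the main and related fits and DESeq2 1.42.0 as an alternative, all in R 4.3.3. For each comparison only its own libraries entered: filterByExpr, TMM and the two-sided quasi-likelihood test were applied, and p was adjusted by Benjamini and Hochberg's method across the tested genes (threshold 0.05). Standard errors were obtained as log2 fold change over the root of F, and 95% intervals use the degrees of freedom of the fit. Levels are CPM scaled by TMM over 9 libraries, per kilobase of merged GENCODE vM21 exons (GRCm38) where stated, in which 23350 of 24421 names matched. Members and lists were chosen with earlier results of these data known. All members, every called pathway gene, the largest rise and fall of each list in the second comparison, and the 5 genes most like summed alpha tubulin (pseudocount 0.5 CPM) were named; other genes were chosen after their values were seen. Alternatives were DESeq2, limma-trend and edgeR's exact test, different scalings, different low-count filters (1 count in any library, or 10 in each), a model of all 9 libraries, a replicate block, the control group as reference, and libraries left out. Cyclic loess scaling and removal of a trend with exon length were added after seeing the data. On simulated data for BAL101553 against control with 200 of 12528 genes changed 2-fold, the test recovered 64.5% with 6 false calls. In the data 14.7% of genes were called, and the largest change of a member was 1.73-fold (*Tuba1a*). Recovery of changes as small as those of the members was not measured. Coding ends of the alpha tubulins are not reported here.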

Additional observations from a re-analysis of the deposited data

How the results depend on the processing

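For BAL101553 against control, *Tuba1a*, *Tuba1b* and *Tuba1c* were called lower in each of the 13 alternatives that kept all libraries, and *Tbcb* in 10. Over fits that left out libraries, the number of members called ranged from 0 to 4, that of pathway genes (14 with all libraries) from 0 to 16, being 1 without control 3 and 2 without control 1, and that of all genes (1860) from 1 to 1757. All genes called were 2832 with DESeq2 and 3022 with all 9 libraries in one model. Pathway genes called were 8 with total counts, 23 with all 9 libraries, 6 after cyclic loess and 9 with the length trend removed. All genes called were 1881 with total counts, 1691 after cyclic loess and 1406 with the length trend removed. Same-numbered control and BAL101553 libraries had correlations of deviations of 0.155, -0.0081 and 0.154, and BAL101553 2 did not correlate best with its own number, so the numbers were not taken as pairs; with the replicate block 9 pathway genes, 1371 genes in all and 3 members were called (*Tbcb*, adjusted p = 0.0501 by edgeR). *Tbcd* was called with DESeq2 (adjusted p = 0.0331) and with all 9 libraries (0.0288), and *Tbce* with all 9 libraries (0.0339). *Ttc5* turned to 0.0447 with total counts and ranged from -0.147 to 0.0387 over libraries left out (0.0345 and 0.00107 among them), and *Tbcc* from -0.428 to 0.0406. *Tbca* was at -0.014 with the length trend removed. For the libraries labelled astrocytes against BAL101553, *Tuba1a* (1.13) was called, *Tuba4a* (-0.073) was not and *Tbcc* turned to -0.10 after cyclic loess, and with the length trend removed *Tuba1a* was at -0.19, *Tbcb* at -0.015, *Tbcc* at -0.25 and *Tbce* at 0.15 (not called). Against the control group *Tuba1a* was at -0.60, *Tbcb* at -0.11 and *Tbcc* at -0.085. The log2 ratio of the alpha tubulin sum (-0.52) was -0.31 with total counts and -0.34 with upper quartile scaling. The cause of these changes was not tested. No other call of a member changed with the block. Depth limits *Tuba3a*, *Tuba3b*, *Tubal3* and *Tubb1*, which had too few reads to test.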
